A study of Capsicum annuum and Capsicum chinense and Capsicum annuum var. glabriusculum with 33 samples.

Results

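The 150 genes described here were at their highest in the smallest fruit of the pepper inbred line Zunla 1, and fell away in nearly every older fruit stage of that line. They were chosen by their RPKM (reads per kilobase of gene model, divided by the library's read total) in the 14 Zunla 1 libraries. A gene had to reach its highest value, at 10 RPKM or more, in fruit of 0 to 1 cm or of 1 to 3 cm. Of the 31426 genes in the table, 2633 met that condition. They were ranked by log2(mean of the 2 smallest stages + 1) minus log2(highest of the other 12 libraries + 1), and the first 150 were taken. Because these 14 libraries chose the members, their values are a description and carry no test. The other 19 libraries were outside the choice, and 18 of them are of other lines.

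RNA of 33 pepper samples was sequenced after poly(A) selection, with 1 library for each line and tissue or stage. Zunla 1, a greenhouse-grown Capsicum annuum inbred line, gave fruit at lengths of 0 to 1, 1 to 3, 3 to 4 and 4 to 5 cm, at mature green, at breaker (the turn to red) and 3, 5 and 7 days after breaker, together with roots, stems, leaves, closed flower buds and open flowers of grown plants. The series' design text lists no stage shorter than 1 cm, so stage lengths here follow the sample labels. HYL, an inbred line of C. chinense Jacq., gave fruit 5 days after breaker and at mature green, and the leaf, root and stem of seedlings. Chiltepin, C. annuum var. glabriusculum, which is the wild form of the species, was grown under long days at controlled temperature. It gave breaker fruit, a mix of flower buds and open flowers, and a mix of leaves from several growth phases. Fruit 5 days after breaker came from the C. annuum lines ZJ49 and ZJ7, and mature green fruit from 8 C. annuum lines, ZJ32, ZJ9, ZJ49, 11c255, G16, 11c320, T803 and SP3. The labels of the ZJ lines also call them Zunla lines, and the library titled SP3 carries another line name in its other labels. All groups were untreated, and no label says whether a library pooled several plants. A further breaker fruit library has labels that name both HYL and Zunla 1, and it enters no comparison.

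A pepper fruit begins as the ovary of the flower. After fertilisation its wall first grows mainly by cell division and then mainly by cell expansion, while ovules become seeds inside it, and ripening later replaces chloroplasts by chromoplasts. A library of a very small fruit therefore holds RNA of wall, placenta and young seeds in proportions that differ from those of a large fruit. In bulk RNA, fewer cells of a type and less RNA per cell cannot be told apart, and this holds for every difference below. The gene IDs are those of the file. None of them matched a gene name (0 matches), so no function is given to any member, and lists of pathway genes or of organ markers could not be applied. For the same reason the labelled tissues could not be checked against named markers.

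Read totals recovered from the steps between RPKM values were 12691809 to 15864306 reads in 25 libraries and 25923891 to 31213971 reads in 8. The deeper libraries were the 3 of chiltepin and the mature green lines 11c255, 11c320, G16, SP3 and T803. In a shallower library 3 reads on a gene of median length correspond to about 0.2 RPKM, so levels under that value were not told apart from 0. HYL fruit 5 days after breaker stood apart, with 46.8% of all genes at 1 RPKM or more, against 53.7% to 61.8% in the other 32 libraries.

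The rank measure was 5.03 for the first member and had a median of 1.68. The last member, Capana07g000467, scored 1.267 with a mean of 11.97 RPKM in the 2 smallest stages and 4.39 RPKM in the next highest library. The first gene outside, Capana01g003760, scored 1.264 with 12.30 and 4.54 RPKM. The values on both sides of the limit are nearly the same. The mean of a member over the 2 smallest stages was between 7.05 and 97619 RPKM, with a median of 60.0 RPKM. In at least 1 of the 2 stages 63 members reached 100 RPKM and 11 reached 1000 RPKM. Coding lengths recovered for all 150 members had a median of 966 bases (303 to 4716), against 1122 bases in the 2483 other genes that met the condition and 972 bases over all 25556 genes with a length.

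**Figure D1:**
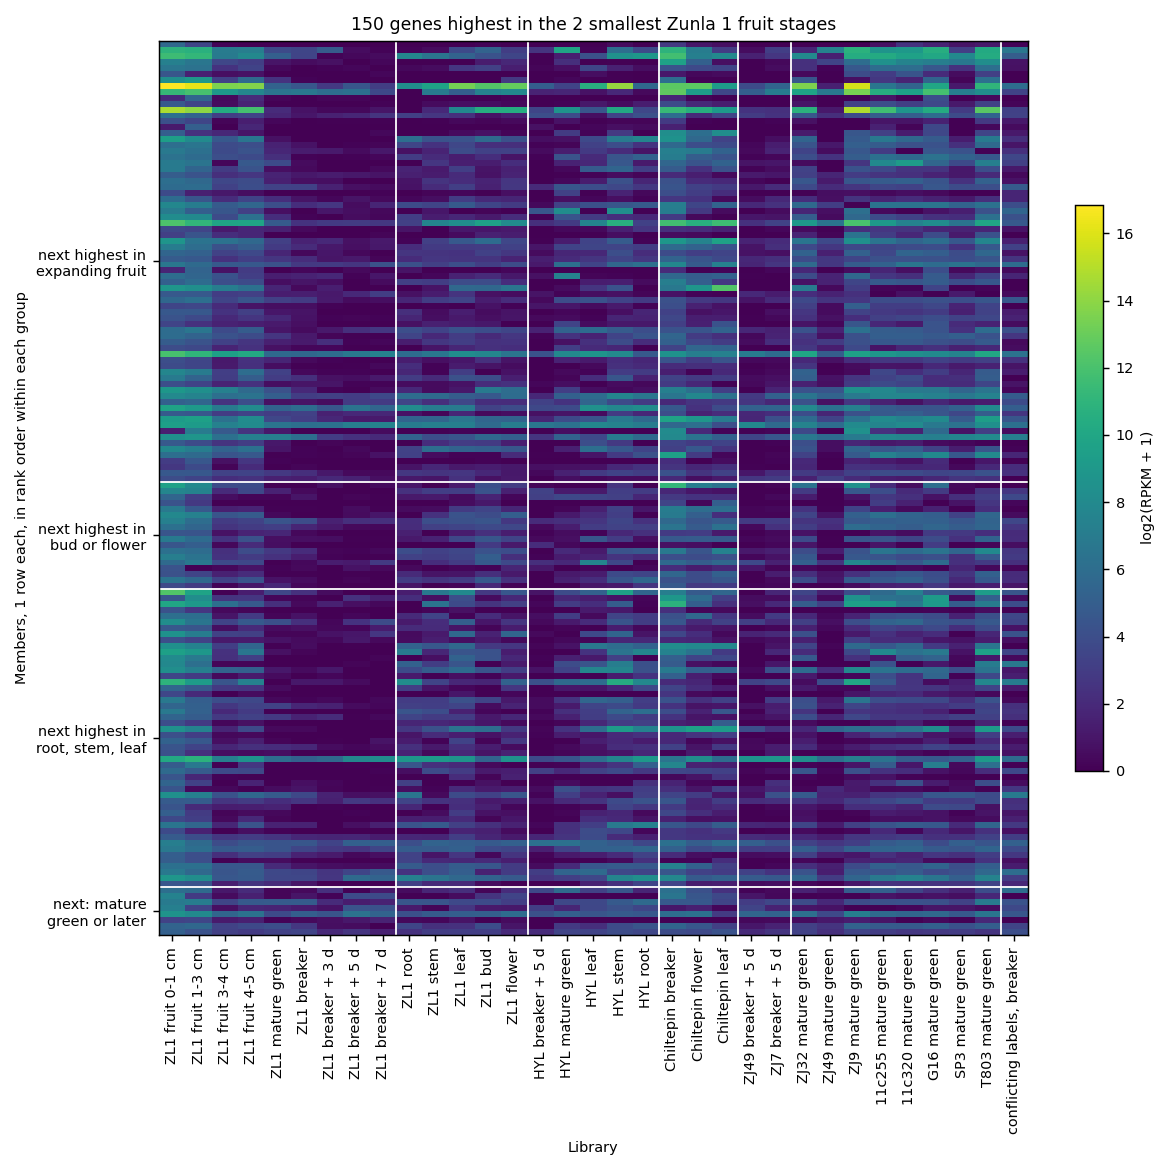
Level of each of the 150 members, as log2(RPKM + 1), with 1 row per member and 1 column per library. Rows are grouped by the Zunla 1 library that was next highest after the 2 smallest fruit stages (74 in fruit of 3 to 5 cm, 18 in bud or flower, 50 in root, stem or leaf, 8 in mature green or later fruit). White lines part the lines and stages, and the dark columns are fruit from mature green on in Zunla 1, HYL fruit and the ZJ49 and ZJ7 fruit libraries.

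Within Zunla 1 the members were most abundant in the smallest fruit of all. The peak lay at 0 to 1 cm for 120 members and at 1 to 3 cm for 30. The median ratio of the second stage over the first was 0.62. For 91 members the 2 stages lay within 2-fold of each other, for 50 the first was more than 2-fold higher, and for 9 the second was. The median level was 59.6 RPKM at 0 to 1 cm, 43.0 RPKM at 1 to 3 cm, 4.89 RPKM at 3 to 4 cm, 8.27 RPKM at 4 to 5 cm and 1.40 RPKM at mature green. It was 0.503 RPKM at breaker and 0.201, 0.150 and 0.233 RPKM at 3, 5 and 7 days after breaker. By mature green 80 members were still at 1 RPKM or more, and 5 days after breaker 37 were. In all 5 stages from mature green on, 57 members stayed under 1 RPKM.

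The course over size was not a steady decline, since 115 of the 150 members (76.7%) were higher at 4 to 5 cm than at 3 to 4 cm. The same held for 62.9% of the 2483 other genes that met the condition and for 41.5% of all genes. Each stage is 1 library, so the spread between fruits of a size is not known. In percent of a member's own mean in the 2 smallest stages, the median member stood at 9.93% at 3 to 4 cm, 18.2% at 4 to 5 cm and 2.04% at mature green. The other 2483 genes stood at 67.7%, 72.4% and 43.7% at the same stages. These differences follow from the ranking, which took the genes with the steepest drop.

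**Figure D2:**
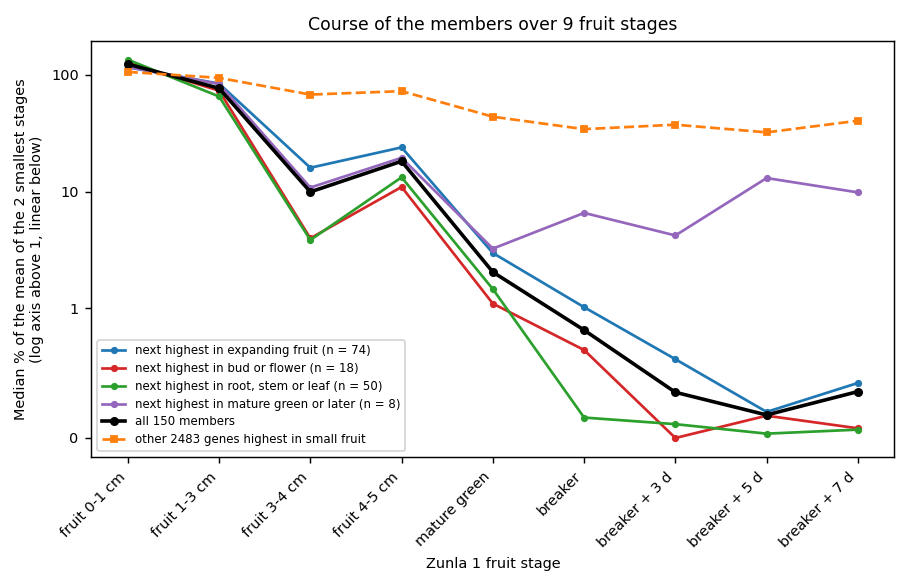
Median level over the 9 Zunla 1 fruit stages, in percent of each gene's mean in the 2 smallest stages (log axis above 1%, linear below). The black line is all 150 members, coloured lines are the members split by their next highest library, and the dashed line is the 2483 other genes that met the condition. The black line drops to 9.93% at 3 to 4 cm, stands at 18.2% at 4 to 5 cm and is under 1% from breaker on, and the 8 members whose next highest library is mature green or later stand at 13.0% at 5 days after breaker.

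The next highest Zunla 1 library divided the members. It was fruit of 4 to 5 cm for 55 and fruit of 3 to 4 cm for 19, so that 74 members ran on at a lower level into expanding fruit. For 50 members it was a vegetative organ, with leaf for 24, root for 17 and stem for 9. For 18 it was a closed bud (16) or an open flower (2), and for 8 it was fruit at mature green or later. Over the 5 organs, 14 members stayed under 1 RPKM in all and 55 were at 1 RPKM or more in all. The median over the 150 members was 2.34 RPKM in root, 2.58 RPKM in stem, 5.22 RPKM in leaf, 2.77 RPKM in bud and 2.31 RPKM in flower.

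The same groups can be read in libraries that had no part in the division, and the match was partial. In the chiltepin flower mix the 18 members of the bud or flower group had a median of 14.3 RPKM, the 74 of expanding fruit 6.74 RPKM, the 50 of vegetative organs 3.26 RPKM and the 8 late members 18.9 RPKM. In HYL root the vegetative group had a median of 7.20 RPKM, the expanding fruit group 2.40 RPKM, the bud or flower group 2.73 RPKM and the late group 10.7 RPKM. The late group was thus the highest in both libraries. Chiltepin leaf went against the division, since the vegetative group was the lowest there at 5.16 RPKM and the bud or flower group the highest at 24.4 RPKM. In HYL stem the late group was the highest at 15.7 RPKM, followed by the vegetative group at 9.84 RPKM, the bud or flower group at 7.76 RPKM and the expanding fruit group at 6.46 RPKM. In fruit 5 days after breaker the late members had a median of 2.02 RPKM in ZJ49, 2.07 RPKM in ZJ7 and 1.62 RPKM in HYL. The expanding fruit members had 0.261, 0.634 and 0.112 RPKM in those 3 libraries. These groups were split by Zunla 1 values alone, and the medians are given without a test.

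The first members by rank were nearly restricted to small fruit in Zunla 1 and differed widely among the other lines. Capana10g000269, ranked 1, had 813 and 248 RPKM at 0 to 1 and 1 to 3 cm, 13.97 and 13.33 RPKM at 3 to 4 and 4 to 5 cm, and at most 0.634 RPKM from mature green on. Its highest organ was the bud at 15.3 RPKM. Outside Zunla 1 it was highest in chiltepin breaker fruit at 2260 RPKM, which is above its Zunla 1 peak. Over the 8 mature green lines it ranged from 0 in T803 over a median of 1.82 to 364 RPKM in ZJ9. Fruit of the same stage thus ranged from none of this RNA to a level above that of Zunla 1 fruit of 1 to 3 cm.

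Capana10g000206, ranked 2, had 51.3 and 10.7 RPKM in the 2 smallest stages and at most 0.141 RPKM in the other 12 Zunla 1 libraries. It is 1 of only 3 members under 1 RPKM in all of those 12. Outside Zunla 1 it was highest in chiltepin breaker fruit at 6.10 RPKM, and among the mature green lines it ranged from 0 over a median of 0.766 to 4.63 RPKM in 11c320. It was at 0 in the mature green fruit of all 3 ZJ lines, ZJ32, ZJ9 and ZJ49. The 5 deeper lines held between 0.695 and 4.63 RPKM, so the lines in which it was found are also the deeper libraries. The part of depth in that was not tested.

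Capana06g000464, ranked 3, had 67.3 and 54.8 RPKM in the 2 smallest stages and 3.97 RPKM in its next highest Zunla 1 library, fruit 3 days after breaker. In HYL it had 55.0 RPKM at mature green, 11.3 RPKM 5 days after breaker, and 8.72, 2.35 and 21.9 RPKM in leaf, root and stem. In chiltepin breaker fruit it had 73.4 RPKM. It was 1 of 12 members that had 0.5 or more of their own Zunla 1 small fruit mean in HYL mature green fruit.

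Capana05g000959, ranked 4, had 1884 and 1637 RPKM in the 2 smallest stages, 129 and 150 RPKM at 3 to 4 and 4 to 5 cm, and 12.8 RPKM at mature green. It had 1925 RPKM in chiltepin breaker fruit and 927 RPKM in HYL mature green fruit. Among the 8 mature green lines the lowest was 2.57 RPKM in ZJ32, the median 461 RPKM and the highest 1705 RPKM in ZJ9. The lines did not fall on a common level, and the SD over them, 670 RPKM, was about as large as their mean of 682 RPKM (n = 8).

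Capana07g000107 was the most abundant member. It reached 119064 RPKM at 0 to 1 cm and 76175 RPKM at 1 to 3 cm, where it took 11.2% and 7.27% of the summed RPKM of the whole library. It still had 11793 and 13334 RPKM at 3 to 4 and 4 to 5 cm, and then 38.3 RPKM at mature green. Among the organs of Zunla 1 it had 10517 RPKM in leaf, 7564 RPKM in flower, 5110 RPKM in bud, 829 RPKM in stem and 318 RPKM in root. It was also the highest member in chiltepin flower, at 6361 RPKM, and in HYL stem, at 18928 RPKM. Over the mature green lines it ran from 1.20 RPKM in SP3 over a median of 557 to 57293 RPKM in ZJ9.

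Capana10g000283 was the second most abundant, with 26752 and 16072 RPKM in the 2 smallest stages, 1334 and 3840 RPKM in fruit of 3 to 4 and 4 to 5 cm and 3.17 RPKM at mature green. Its median over the 8 mature green lines was the highest of all members at 1579 RPKM, between 1.17 RPKM in ZJ49 and 29210 RPKM in ZJ9. Next by that median came Capana02g001935, with 966 RPKM, between 1.75 RPKM in ZJ49 and 1364 RPKM in ZJ9. In Zunla 1 this gene had 2966 and 2328 RPKM in the 2 smallest stages and 33.6 RPKM at mature green. In both genes the mature green library of ZJ49 was the lowest and that of ZJ9 the highest.

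All 150 members together made up 17.7% of the summed RPKM at 0 to 1 cm, 11.5% at 1 to 3 cm, 1.72% at 3 to 4 cm, 2.29% at 4 to 5 cm and 0.105% at mature green. Without the most abundant member of each library the first 2 shares were 6.49% and 4.18%. Among the libraries of other lines, the share was highest in ZJ9 mature green fruit at 10.2%, followed by chiltepin breaker fruit at 3.80% and HYL stem at 2.80%. Without the most abundant member of each library these shares were 5.00%, 3.12% and 0.949%. HYL stem then lay below mature green fruit of T803 at 1.51% and of G16 at 0.983%.

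The IDs showed some clustering. In 7 pairs, 14 members in all, 2 members had consecutive ID numbers, against 1 pair among the 150 genes ranked next. An example is Capana01g001488 with 765 and 483 RPKM in the 2 smallest stages and Capana01g001489 with 711 and 271 RPKM. Where such neighbours are near-identical copies, reads may have been split between them, so their separate levels are uncertain. IDs that start with Capana01 made up 30 of the 150 members (20%) and 10.7% of all genes. What the ID digits stand for is not given in the sources used here.

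Most members were found in other lines too. No member stayed under 1 RPKM in all 18 libraries assigned to other lines, and 22 were at 1 RPKM or more in all 18. The highest of these 18 libraries was chiltepin breaker fruit for 45 members, T803 mature green fruit for 21, ZJ9 mature green fruit for 17 and G16 mature green fruit for 11. For 48 members some library of another line was above the Zunla 1 peak. In chiltepin breaker fruit 32 members were above it, in chiltepin leaf 13, in T803 mature green fruit 10 and in ZJ9 mature green fruit 8. These counts were not made over other genes, so they stand without a background.

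**Figure D3:**
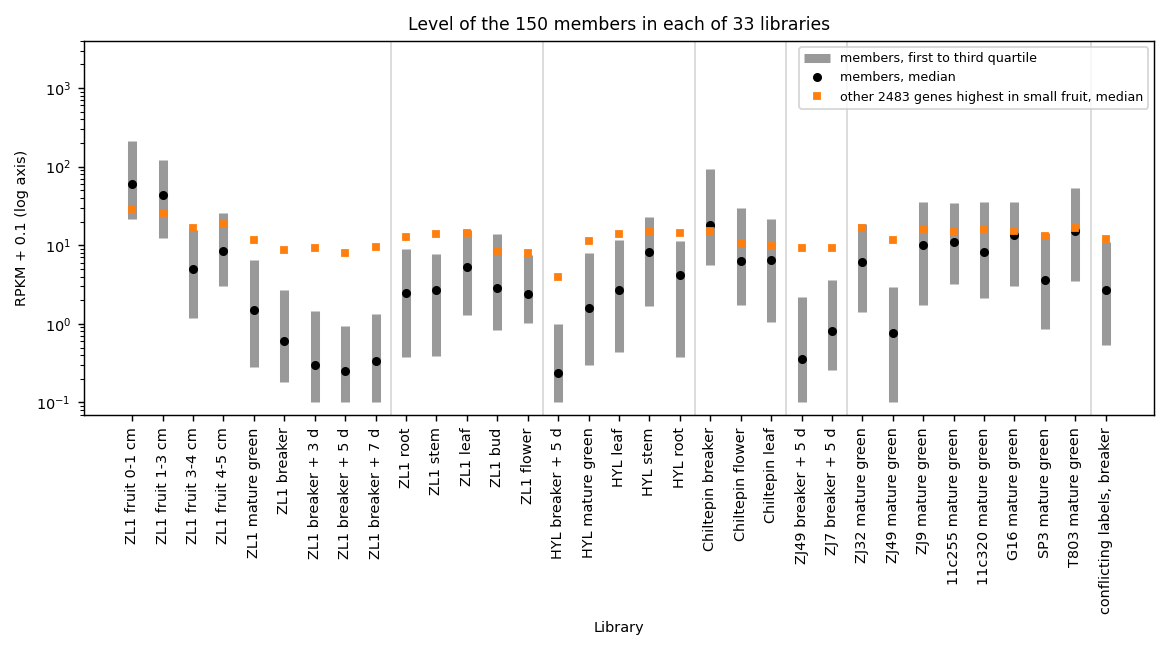
Level of the members in each of the 33 libraries, in RPKM + 0.1 on a log axis. Grey bars run from the first to the third quartile of the 150 members, black points are their median, and orange squares are the median of the 2483 other genes that met the condition. The black points lie at 59.6 and 43.0 RPKM in the 2 smallest Zunla 1 stages, at 18.2 RPKM in chiltepin breaker fruit, and under 1 RPKM in Zunla 1 fruit from breaker on, in ZJ49 fruit of both stages, in ZJ7 fruit and in HYL fruit 5 days after breaker.

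Mature green fruit did not hold a common level of the members across lines. Member medians were 0.659 RPKM in ZJ49, 3.55 RPKM in SP3, 6.04 RPKM in ZJ32, 8.09 RPKM in 11c320, 10.1 RPKM in ZJ9, 10.9 RPKM in 11c255, 13.6 RPKM in G16 and 15.0 RPKM in T803. Their mean was 8.49 ± 4.91 RPKM (SD, n = 8 lines), and Zunla 1 at the same stage, 1.40 RPKM, lay between ZJ49 and SP3. Between 105 and 130 members were at 1 RPKM or more in 7 of the lines, and 66 were in ZJ49. At this level 59 members were found in all 8 lines, 86 in some and 5 in none.

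The members varied more between lines than other genes did. The SD of log2(RPKM + 1) over the 8 lines had a median of 1.33 over the members. It was 0.51 over the 2483 other genes that met the condition, and 0.54 over the 19743 genes with a mean of 1 RPKM or more in these lines. For the 137 members with such a mean it was 1.42. The SD is a description and no test was run on it. The 5 deeper libraries had member medians of 3.55 to 15.0 RPKM and the 3 shallower ones 0.659 to 10.1 RPKM, and the part of depth in this spread was not tested.

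The first comparison set fruit 5 days after breaker against mature green fruit. Fruit of ZJ49 and ZJ7 5 days after breaker held less of many members than mature green fruit of the 8 lines did. ZJ7 gave no mature green library, and ZJ49 had the lowest member median of the 8 mature green lines, 0.659 RPKM. Line and stage thus differ together in this comparison and cannot be told apart. Over all 150 members the difference in mean log2(RPKM + 1), ripe minus green, had a median of -1.92 and was negative in 139 (92.7%). Over all 31426 genes the median was -0.04, with 56.8% negative. Of the 143 members that passed the filter on low values, 26 fell with a limma adjusted p under 0.05 and 1 rose. Over all genes tested, 6.90% fell and 4.25% rose by that rule. After scaling the libraries by size factors, 22 members fell and 1 rose, with 1115 falls and 1204 rises over all genes, against 1465 and 902 unscaled. In 39 members both ripe libraries lay below all 8 green ones, as they did in 15.4% of all genes tested. The 26 falls ran from -1.79 to -6.09 on the log2(RPKM + 1) scale. These members include some that passed the filter only through the green arm, where they were high. With no filter on low values 17 of 150 members fell and 1 rose, against 4.02% and 3.39% of genes.

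The steepest fall was Capana12g000232. It had 0 RPKM in ZJ49 and 0.299 RPKM in ZJ7 5 days after breaker, and a lowest, median and highest value of 4.15, 128 and 365 RPKM over the 8 mature green lines. The arms did not overlap. The log2 difference was -6.09 (SE 1.44, limma adjusted p = 0.0248, 2 against 8 libraries), and -3.76 within the shallower set (limma adjusted p = 0.200). The gene passed the filter on low values only through the green arm, where it was high. In Zunla 1 this gene had 162 and 95.4 RPKM in the 2 smallest stages and 0.977 RPKM at mature green, and chiltepin breaker fruit had 788 RPKM.

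Capana10g002167 had 4.38 RPKM in ZJ49 and 9.22 RPKM in ZJ7 5 days after breaker, against a lowest, median and highest value of 84.8, 409 and 4219 RPKM at mature green. Both ripe values were far below the lowest green one. The log2 difference was -5.71 (SE 1.22, limma adjusted p = 0.0174), and -6.27 within the shallower set (limma adjusted p = 0.177). With ZJ49 and HYL fruit alone it was -2.29. This gene was abundant outside fruit as well, with 3089 RPKM in chiltepin leaf, 1596 RPKM in chiltepin flower and 1608 RPKM in HYL stem.

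The 1 member that rose was Capana10g002360. It had 10.2 RPKM in ZJ49 and 2.06 RPKM in ZJ7 5 days after breaker, against a lowest, median and highest value of 0, 0.598 and 0.969 RPKM at mature green. It passed the filter on low values only through the ripe arm, where it was higher. The log2 difference was 1.98 (SE 0.46, limma adjusted p = 0.0239), and 1.05 without ZJ49 5 days after breaker (limma adjusted p = 0.349). It is 1 of the 8 members whose next highest Zunla 1 library was a late fruit stage, at 18.5 RPKM 5 days after breaker, after 153 and 9.73 RPKM in the 2 smallest stages. In HYL it had 7.20 RPKM 5 days after breaker and 2.29 RPKM at mature green.

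**Figure D4:**
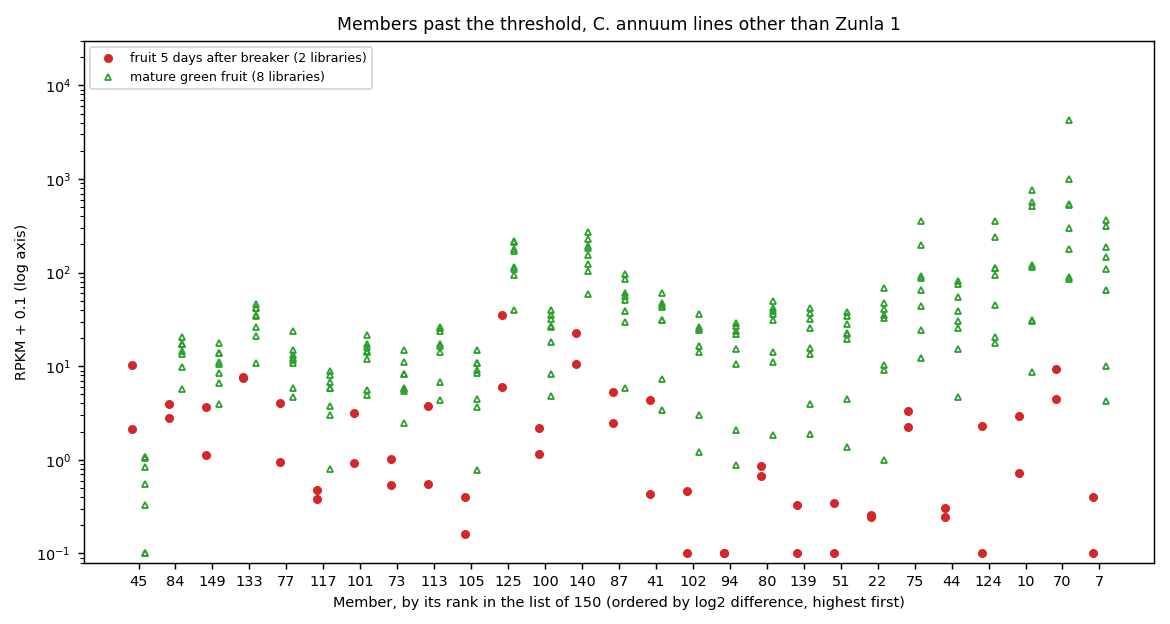
The 27 members past the threshold in fruit 5 days after breaker (filled circles, 2 libraries) against mature green fruit (open triangles, 8 libraries) of C. annuum lines other than Zunla 1, in RPKM + 0.1 on a log axis. Members are named by rank and ordered by their log2 difference, from 1.98 at the left to -6.09 at the right. In 25 of the 26 members that fell, both circles lie below all 8 triangles.

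The count of called members depended on single libraries. It was 0 without ZJ49 5 days after breaker, where 0.936% of all genes tested were called. Without ZJ7 5 days after breaker 7 of 146 members were called, 6 of them lower, against 3.33% of genes lower. Without ZJ49 mature green fruit 62 of 143 members were lower and 1 higher, against 13.3% of genes lower. The count was 16 of 141 without 11c320, where 7.20% of all genes tested were called. It was 17 of 141 without 11c255, G16 or T803, where 7.12%, 8.40% and 7.73% of genes were called. Depth moved with the groups, since both ripe libraries and only 3 of the 8 green ones are of the shallower set. Within the shallower set 0 of 113 members and 0 genes were called by limma, with 26 members lower and 2 higher at an unadjusted p under 0.05, against 11.2% of genes lower. The median difference over the members tested was -1.87 there. With the depth set as a term 7 of 143 members were called, all lower, against 4.13% of genes lower, so that share was near the background. Within the line ZJ49 itself, 75 members were lower and 42 higher 5 days after breaker than at mature green, and 78 were under 1 RPKM in both libraries. Of all genes, 41.5% were lower and 34.5% higher in ZJ49. The median log2 difference in ZJ49 was -0.05 over the members and 0 over all genes. Within HYL 116 members were lower and 15 higher (77.3% and 10%), against 56.9% and 17.7% of all genes. The median in HYL was -0.59 over the members and -0.18 over all genes. A fit of these 4 libraries with the line as a block, which pairs each ripe library with the green one of its line, called 23 members lower and 3 higher of 71 tested, against 12.7% of genes lower and 3.56% higher. This fit leaves 1 residual degree of freedom per gene, so its calls rest mostly on a spread shared over genes. One of its ripe libraries is the HYL library that stands apart in genes detected.

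The second comparison set fruit against other organs in the lines HYL and chiltepin. For most members, fruit stood below the other organs in HYL and above them in chiltepin. Fruit minus other organs, on the log2(RPKM + 1) scale and over all 150 members, had a median of -1.17 in HYL, where 119 members (79.3%) were lower in fruit. So were 59.0% of all genes and 81.9% of the 2483 other genes that met the condition. With mature green fruit as the only HYL fruit library, since the other stands apart, the median was -0.88, and 102 members (68.0%) were lower than the mean of the organs, against 50.2% of all genes. In chiltepin the median was 1.36, and 131 members (87.3%) were higher in fruit, against 50.3% of all genes and 80.3% of those 2483 other genes. In 103 members (68.7%) fruit was lower in HYL and higher in chiltepin. The same opposition held for 67.1% of the 2483 other genes that met the condition and for 35.9% of all genes. All 3 fruit libraries against all 5 organ libraries, with the line as a covariate, gave 0 of 126 members and 0% of 20012 genes past the threshold with limma. In simulated data this fit recovered only 7% of 4-fold changes and 58% of changes of 4 log2 units. The 0 calls therefore do not show that fruit and organs are alike. At an unadjusted p under 0.05 there were 4 members higher and 7 lower in fruit, against 2.89% of genes higher and 6.77% lower. Without HYL fruit 5 days after breaker these counts were 12 higher and 1 lower of 137, against 3.33% of genes higher and 2.78% lower. The median difference over the members tested was -0.56 with that library and -0.04 without it.

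**Figure D5:**
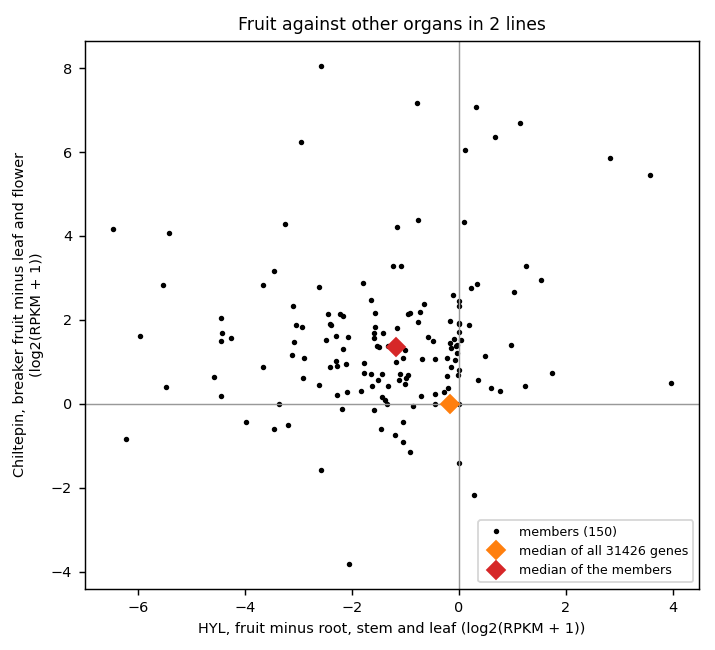
Fruit minus other organs on the log2(RPKM + 1) scale, for HYL on the horizontal axis (2 fruit and 3 organ libraries) and chiltepin on the vertical axis (1 fruit and 2 organ libraries). Each point is 1 of the 150 members, and diamonds are medians. Most points lie at the upper left, with the median member at -1.17 and 1.36, and the median of all 31426 genes is at -0.17 and 0.01.

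The difference between the lines was tested as an interaction, chiltepin against HYL, which was chosen after seeing the data. No member and 0% of all genes passed the adjusted threshold, and the lowest limma adjusted p was 0.0601. At an unadjusted p under 0.05 there were 51 of 126 members higher and 0 lower, against 9.06% and 2.45% of all genes tested. The median interaction was 2.89 over the members tested and 0.84 over all genes tested. Chiltepin fruit was at breaker and HYL fruit at mature green and 5 days after breaker, the organs differ too, and the chiltepin libraries are deeper. Line, stage and depth cannot be told apart here.

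In HYL alone, 3 members were lower in fruit than in the seedling organs, and 0 higher, of 119 tested, against 0.711% of genes lower and 1.13% higher. Named after their values were seen, they were Capana01g001628, Capana09g000202 and Capana01g001532. Capana01g001628 had 0.161 and 0.732 RPKM in HYL fruit 5 days after breaker and at mature green, against 99.7, 37.7 and 64.3 RPKM in leaf, root and stem. The log2 difference was -5.48 (SE 0.62, limma adjusted p = 0.0134), but this gene passed the filter on low values only through the organs, where it was high. In chiltepin the same gene was at 300.0 RPKM in breaker fruit, 229 RPKM in flower and 224 RPKM in leaf. Over the 150 members, 63 had both HYL fruit libraries below all 3 organs and 3 had both above, against 22.3% and 7.14% of all genes. In chiltepin 114 members were higher in breaker fruit than in either organ, as were 37.5% of all genes.

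Both HYL fruit libraries were low for the members, at medians of 0.135 RPKM 5 days after breaker and 1.51 RPKM at mature green, and the stem was the highest HYL library at 8.06 RPKM. Root and leaf had medians of 4.15 and 2.64 RPKM. In chiltepin the medians were 18.2 RPKM in breaker fruit, 6.29 RPKM in flower and 6.43 RPKM in leaf. Capana07g000107 had 32.0 and 9.60 RPKM in HYL fruit 5 days after breaker and at mature green, against 1619, 50.6 and 18928 RPKM in leaf, root and stem.

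The third comparison sets HYL fruit against fruit of the C. annuum lines other than Zunla 1, with the stage as a covariate (2 against 10 libraries). Over all 150 members the log2 difference had a median of -1.09 and was negative in 124 (82.7%), against a median of -0.09 and 63.3% negative over all genes. The size depended on HYL mature green fruit. Over the members tested the median was -1.14 with it and -0.23 without it, where all genes tested had a median of -0.49. Of 144 members tested, 3 were lower and 1 higher past the limma threshold. Over all genes tested 6.09% were lower and 3.17% higher, so the members' share of calls was not above the background. After scaling by size factors, 2 members were lower and 3 higher, with 1040 genes lower and 1331 higher in all, against 1312 and 683 unscaled.

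Capana10g001261 was the only member named by rule in this comparison. It had 2.21 and 2.52 RPKM in HYL fruit 5 days after breaker and at mature green. In the C. annuum lines it had 33.2 RPKM in ZJ49 and 138 RPKM in ZJ7 5 days after breaker, and a lowest, median and highest value of 108, 829 and 10816 RPKM at mature green. HYL fruit lay below all 10 libraries. The log2 difference was -6.39 (SE 1.52, limma adjusted p = 0.0235), and it was -4.42 without HYL mature green fruit (limma adjusted p = 0.299). In Zunla 1 it had 2478 and 4023 RPKM in the 2 smallest stages, and in chiltepin breaker fruit 7012 RPKM, where it was the most abundant member.

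The other members called were named after their values were seen. Capana07g000467, the last of the list, was lower in HYL fruit, at 0 and 0.560 RPKM 5 days after breaker and at mature green. The C. annuum lines had 5.28 and 6.54 RPKM 5 days after breaker and 1.31 to 8.07 RPKM at mature green. Capana02g001804 was lower too, at 0 and 0.698 RPKM in HYL, with overlap of the arms, since ZJ49 5 days after breaker had 0.455 RPKM. Both of these genes passed the filter on low values only through the C. annuum libraries, where they were higher. Capana00g003143 was higher in HYL fruit, at 21.6 and 302 RPKM, against 0 and 0.431 RPKM 5 days after breaker and 0.032 to 71.4 RPKM at mature green in the C. annuum lines. These arms overlap as well, and HYL stem had 319 RPKM. Without HYL fruit 5 days after breaker, the library with few genes detected, none of the falls was called. HYL then has only its mature green library, and the median difference was -1.29 over the members tested and -0.09 over all genes tested. It was negative in 121 of the 147 members tested, while Capana02g003140 and Capana11g001637 were higher in HYL, by 2.92 and 3.53. Without ZJ7 5 days after breaker 0 members were called, against 5.91% of genes. Without ZJ49 mature green fruit 16 members were called, 14 of 144 lower, against 7.65% of genes lower.

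Chiltepin breaker fruit had the highest median member level outside Zunla 1, 18.2 RPKM, while the summed level was highest in ZJ9 mature green fruit. Set beside the 8 mature green lines, 57 of the 150 members were above all 8 and 1 was below all 8, against 13.0% and 12.2% of all genes. Against the 5 lines of like depth alone, 71 members were above all, as were 20.7% of all genes. Chiltepin breaker fruit is 1 library, so no test is given. Stage and line differ together in this comparison and cannot be told apart.

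Members named here after their values were seen were low in all mature green lines. Capana06g002968 had 92.2 RPKM in chiltepin breaker fruit, against a lowest, median and highest value of 0, 0.544 and 2.64 RPKM at mature green. Its Zunla 1 level was 175 RPKM at 0 to 1 cm and 6.18 RPKM at 1 to 3 cm. Capana02g003140 had 15.4 RPKM in chiltepin breaker fruit, against 0 to 0.592 RPKM at mature green, and 12.6 and 1.83 RPKM in the 2 smallest Zunla 1 stages. Both genes were higher in the chiltepin library than in all 8 lines. Capana02g003140 was not particular to chiltepin fruit, since HYL mature green fruit had 8.68 RPKM of it.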

How the data were processed

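Poly(A) RNA of 33 pepper samples was sequenced on a HiSeq 2000 with paired reads, per the labels' protocols. The table deposited by the authors holds RPKM, scaled by gene model length and library read total, for 31426 genes in 33 columns, with 0 columns left unused. The aligner, the counter, the genome build and the annotation were not given in the sources used here. None of the IDs matched the RefSeq gene table of the assembly UCD10Xv1.1 (0 matches), and no sequences were used.

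The members and the lists were chosen with earlier results of these data known. Fits used limma 3.58.1 in R 4.3.3 (lmFit, eBayes with trend) on log2(RPKM + 1) values, all two-sided. Genes entered a fit when the number of libraries at 1 RPKM or more was no less than the size of the smaller arm, with Benjamini-Hochberg adjustment over all genes tested and a threshold of 0.05. For ripe against green fruit, lines stand as replicates, with ZJ49 unpaired in both arms. For fruit against other organs, organs and stages of HYL and chiltepin stand as replicates, so that test measures the spread between them. The HYL arm against C. annuum fruit is 2 stages of 1 line, and ZJ49 enters the other arm at both stages. Nothing says whether a line's library varies from plant to plant. Tables were made with Python 3.11.15 and pandas 2.3.3, and the fits were tested on simulated data. A difference on the log2(RPKM + 1) scale understates the change of low genes. Genes were named by rule: the first 4 by rank, the 2 highest in the smallest stages, outside Zunla 1, over the mature green lines, in chiltepin flower and in an HYL organ, those on each side of the limit of the list, and up to 2 rises and 2 falls per comparison among called members without overlap and at a mean of 5 RPKM or more in the higher arm.

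Read totals and coding lengths came from the steps between RPKM values, for the 25556 genes above 0 in at least 10 libraries, with lengths sought among multiples of 3. A length was kept only where all values came out whole within 0.0001 reads, so that is no independent check. These genes held 94.07% to 98.15% of each total, and 376 genes were at 0 everywhere. Read depth by itself sets counting error, and whether the deeper libraries differ in other ways was not tested. Alternatives were other pseudocounts, no filter, scaling by median-of-ratios size factors, fits without each library, the depth set, and other sets of libraries.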

Additional observations from a re-analysis of the deposited data

Results flagged for a closer look

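Over the 8 mature green lines, ZJ49 stood apart with the fewest members at 1 RPKM or more (66, against 105 to 130 in the other lines). ZJ9 stood apart with the highest share of summed RPKM in the members, 10.2%. The same library was far above the other lines in Capana10g000269 (364 RPKM), Capana07g000107 (57293 RPKM), Capana10g000283 (29210 RPKM), Capana10g002167 (4219 RPKM) and Capana10g001261 (10816 RPKM). For normally distributed values chance would flag about 1 in 20 groups at the 95% limit used. The measure took RPKM values as they are, so that rate need not hold here. By this measure 39 of the 150 members (26%) had a line that stood apart, against 15.97% of genes with a mean of 1 RPKM or more, and for 16 of the 39 it was ZJ9 on the high side.

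The breaker fruit library titled HYL but described as Zunla 1 held 93 members at 1 RPKM or more, with a median of 2.62 RPKM. Breaker fruit of chiltepin held 143 and of Zunla 1 held 54. It was not assigned to a line.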

How the results depend on the processing

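Leaving out 1 library at a time gave between 209 and 4413 genes and between 0 and 63 members called for ripe against green fruit (2367 genes and 27 members with all libraries). For fruit against other organs it gave 0 to 400 genes and 0 to 3 members, both highest without chiltepin breaker fruit (0 and 0 with all). For HYL against C. annuum fruit it gave 906 to 2456 genes and 0 to 16 members (1995 and 4 with all). The extremes for ripe against green fruit came without ZJ49 5 days after breaker (lowest) and without ZJ49 mature green fruit (highest). An arm left with 1 library is assumed to vary like the other.

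For ripe against green fruit, the shallower set alone gave 0 genes and 0 members, and the depth set as a term gave 1320 genes and 7 members. The mature green and later fruit of ZJ49 and HYL share a line, and the fit with line as a replicate block gave 2934 genes and 26 of 71 members, against 21 genes and 0 members with no replicate block, a fit added after the data were seen. Without SP3, also added, 24 of 142 members were called, against 9.56% of genes tested. For fruit against other organs, scaling gave 7 genes, no covariate 3 genes, and HYL alone 365 genes and 3 members. For HYL against C. annuum fruit, a pseudocount of 0.1 gave 11 members, mature green fruit alone 817 genes and 2 members, and the shallower set 621 genes. With the pseudocount of 0.1, HYL against C. annuum fruit gave 2599 genes called, 12.1% of those tested. The 11 members were of 144 tested, so their share of calls was not above that background. The list shared 85 members with one drawn at 50 RPKM or more, and 109 to 139 under the other settings. The cause of these changes was not tested.

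Scaling by median-of-ratios size factors shifted the median log2 difference over the genes tested by 0.12 for ripe against green fruit, 0.18 for fruit against other organs and 0.22 for HYL against C. annuum fruit. Relative to all genes the members' medians were -1.79 and -1.81 before and after scaling in the first, -0.31 and -0.43 in the second, and -0.81 and -0.97 in the third. Calls over all genes were 902 higher and 1465 lower for ripe against green fruit, and 1204 and 1115 after scaling, with members at 1 and 26, and 1 and 22. For HYL against C. annuum fruit they were 683 higher and 1312 lower, and 1331 and 1040 after scaling, with members at 1 and 3, and 3 and 2. Of 74 refits of the 4 members named by rule in these comparisons, none reversed direction, and 18 had an adjusted p of 0.05 or more. A limma fit of the 1 chiltepin breaker library against the 8 mature green lines was added after the data were seen. The median log2 difference was 1.23 over the members tested and -0.08 over all genes tested. An arm of 1 library, and a filter that genes could pass through that library alone, make it no test of the groups.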
